A study of Mus musculus with 12 samples.

Results

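The comparison described here sets 2 mice with an induced knockout (KO) of Fgfr1op against 2 wild-type (WT) mice, all sampled on day 9 of a tamoxifen time course, and covers the whole jejunum. It comprises the 4 day 9 arrays of 12 in the series and the 19938 genes that had a probe set with exactly 1 symbol. Where a gene had several such probe sets, the brightest over the 12 arrays stood for it. The other 8 arrays (WT and KO at days 6 and 12, again 2 mice a group) enter the estimate of spread and the comparison between days. Fgfr1op, now called Cep43, encodes a protein of the centrosome and of the base of the cilium. The title of the series places the work on centrosome defects of gut stem cells in relation to Crohn's disease, an inflammatory disease of the gut.

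To delete the gene, tamoxifen in corn oil was injected into the abdomen at 75 mg/kg on 5 days in a row. Tamoxifen switches on a Cre recombinase fused to a modified hormone receptor. Which promoter drives the recombinase, which exons it removes, and the strain, age and sex of the mice are not known here. The injection protocol and a time after tamoxifen are entered for the WT samples as well. Whether the WT mice carried the recombinase or were littermates of the KO mice is not stated, so effects of the recombinase and of losing the gene cannot be told apart in what follows.

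The jejunum is the middle stretch of the small intestine and its main absorptive surface. Stem cells at the base of its crypts divide and feed a sheet of cells that mature as they climb the villi, where enterocytes digest and take up sugars, amino acids, fats, vitamins and ions. Mature enterocytes are rich in mitochondria, peroxisomes and detoxifying enzymes, whereas dividing epithelium invests more in ribosomes, protein folding and nucleotide synthesis. The tissue also holds muscle, nerves, vessels, connective tissue and many immune cells, all of which contributed to each array.

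Values are log2 signals, so a difference of 1 is a doubling, and differences are KO minus WT. They come from limma, a linear model whose spread is moderated across genes, with p-values adjusted by Benjamini-Hochberg over all 19938 genes. A gene was called, or said to have risen or fallen, at an adjusted p under 0.05. In brackets after a gene stand its log2 difference and the standard error (SE). With 2 mice against 2, an exact permutation test cannot go below 0.333, and every call uses the spread as limma moderates it. The p-values measure only the spread between these mice, and the labels name no litter or array batch.

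Several of the genes that rose at least 4-fold shared a short promoter motif, and their sequences are shown for that reason. AP-1 factors, dimers of the Fos, Jun and related proteins, are known to bind TGACTCA and TGAGTCA. The motif searched, TGANTCA, allows any middle base and so is wider than the AP-1 site. RefSeq promoter windows of 300 bases (250 before and 50 after a gene's start, GRCm38.p6) were at hand for 15614 of the 19938 genes, and this motif occurred in 8.08% of those on either strand. It occurred in 10 of the 35 genes with a window among the 46 that rose at least 4-fold (28.6%) and in 15 of 139 among the 166 that fell as much (10.8%). The lines below give in capitals the match nearest to the start among those lying wholly before it. Up to 20 bases are given on each side and none past the start, read along the gene's strand. The match shown for Slc10a2, TGATTCA, is of the wider form only. Me1 is left out because its match runs across the start.
Anxa10, chr8:62123194-62123229, minus strand: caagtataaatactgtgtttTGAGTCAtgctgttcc
Sprr1a, chr3:92485971-92486017, minus strand: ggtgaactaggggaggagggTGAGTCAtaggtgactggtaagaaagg
Ankrd22, chr19:34166042-34166071, minus strand: cctccactggcagaggtacaTGACTCAgaa
Il1rn, chr2:24336699-24336745, plus strand: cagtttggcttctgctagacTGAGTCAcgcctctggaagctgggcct
Plaur, chr7:24462394-24462440, plus strand: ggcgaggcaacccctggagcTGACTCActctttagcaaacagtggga
Dhrs9, chr2:69380424-69380461, plus strand: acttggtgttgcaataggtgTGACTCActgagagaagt
Slc10a2, chr8:5105379-5105425, minus strand: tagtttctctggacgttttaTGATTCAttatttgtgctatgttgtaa
Syt8, chr7:142434658-142434704, plus strand: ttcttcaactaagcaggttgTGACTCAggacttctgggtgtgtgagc
Tmprss11f, chr5:86632446-86632492, minus strand: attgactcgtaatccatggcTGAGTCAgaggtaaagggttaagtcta

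The other 8 motifs searched, on both strands, overlapping matches allowed, are given as the share of all genes with a window and then of those that rose and those that fell at least 4-fold. TGACGTCA, of CREB and ATF factors, was in 2.72%, 2.86% and 0 of 139. TGANNNNGC, of the NRF2 type, was in 45.8%, 60.0% and 43.9%. CAAAGTCCA, of HNF4, was in 0.56%, 0 of 35 and 2.88%. The E-box CACGTG was in 9.50%, 2.86% and 10.1%. TTTATNG, of CDX factors, was in 10.6%, 17.1% and 13.7%. ATTGG, the CCAAT box, was in 41.7%, 37.1% and 47.5%. The interferon response element, taken as TTTC, any 2 bases and TTTC again, was in 3.89%, 5.71% and 6.47%. TTGCATCA, of ATF4 and CEBP dimers, was in 0.82%, 2.86% and 2.16%. A match is a run of letters, not a bound site, and these shares are descriptions.

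The targeted gene, Cep43, gave signals of 6.96 and 7.05 (WT) against 6.60 and 6.63 (KO). Both KO arrays lay below both WT arrays, and the gene fell by limma (-0.39, SE 0.11, adjusted p = 0.0184). Leaving out any 1 of the 4 day 9 arrays ended this call, without KO replicate 1 (-0.37), KO replicate 2 (-0.41), WT replicate 1 (-0.44), WT replicate 2 (-0.35). Whether its probes lie in the deleted exons is not known.

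Across all genes, 5917 of 19938 were called (29.7%), of which 2505 were higher in KO (12.6%) and 3412 lower (17.1%). In all 5917 the WT and KO arrays of day 9 did not overlap, as was so in 65.8% of all genes. The median difference of all genes was 0.02. Falls reached further than rises, with 755 genes down and 277 up at least 2-fold and 166 down and 46 up at least 4-fold. Among 2143 genes bright in both groups, with means of at least 9, 47.9% were called, 373 higher and 653 lower. Leaving out WT replicate 2 gave a total of 3646, WT replicate 1 gave 4056, KO replicate 1 gave 3889 and KO replicate 2 gave 5457. A fit to the 4 day 9 arrays alone called 5449 genes, among them 5139 of the 5917. A core of 2978 genes, 997 higher and 1981 lower, was called whichever of the 12 arrays was left out. Genes named below belong to it unless the array that ends their call is given.

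**Figure D1:**
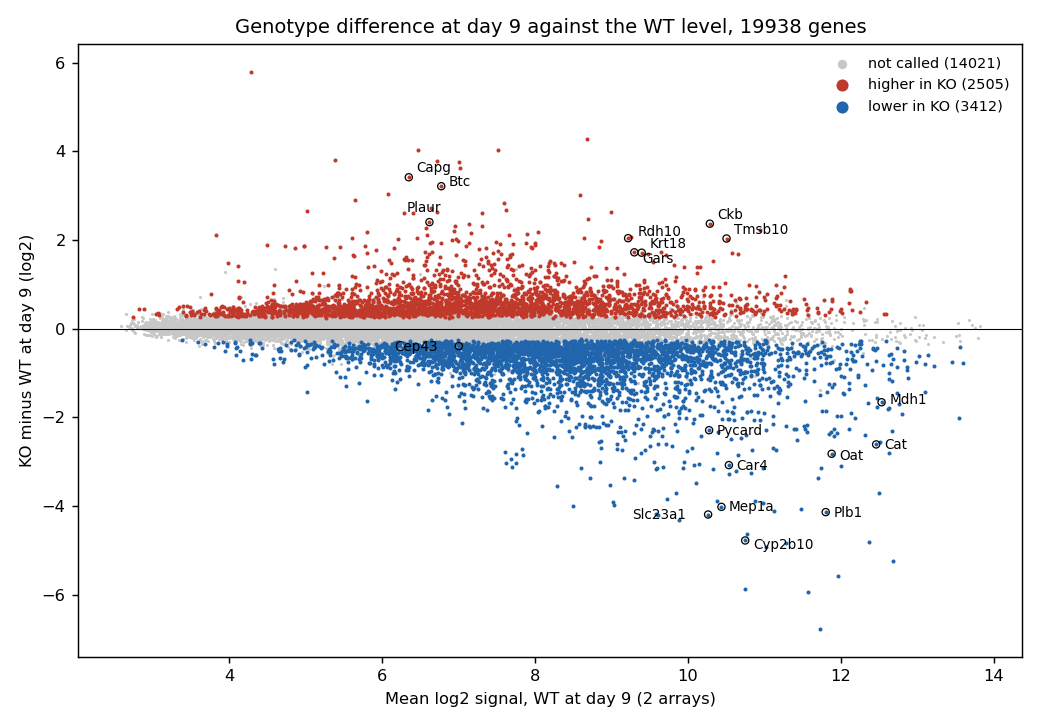
KO minus WT at day 9 (log2) against the mean log2 signal of the 2 WT arrays, 1 point for each of 19938 genes, with 2505 called higher in red, 3412 called lower in blue and the rest in grey. The falls reach further from 0 than the rises, with 166 genes down and 46 up at least 4-fold, and 18 genes are labelled.

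Marker genes of 18 cell types and tissues were counted against the 12.6% of all genes called higher and 17.1% called lower. In brackets after a list stand its median difference and the range of that median over 8 alternatives, namely each day 9 array left out, quantile scaling, median centring, day 9 arrays alone and all 6 WT arrays as the reference. Counts of rises and falls follow for an alternative that moved either of them or their sum by over 1.5 times and by at least 2 genes. Of general epithelial genes 3 of 10 rose and 1 fell (median difference 0.27, range 0.22 to 0.37, counts 6 and 1 against all 6 WT arrays). Epcam differed by -0.04 and Cdh1 by 0.19, neither called, while Vil1, which bundles actin in microvilli, fell (-0.85, SE 0.09). Among 12 smooth muscle genes, 0 were called by limma, with 0 higher and 0 lower at an unadjusted p under 0.05, and their median difference was 0.03. Leaving out KO replicate 2 gave 2 rises among them. The mean of that list relative to all 6 WT arrays was -0.74 and -0.03 (WT) against 0.28 and -0.80 (KO), so the groups overlapped. Of fibroblast genes 4 of 8 rose and 0 fell by limma (0 at an unadjusted p under 0.05, median difference 0.55, range 0.33 to 0.85), with list means of -0.26 and 0.17 (WT) against 0.55 and 0.35 (KO). The collagen gene Col1a1 rose (1.18, SE 0.18). Of T cell genes 0 of 7 rose by limma (0 at an unadjusted p under 0.05) and 3 fell (median difference -0.62, range -0.96 to -0.29), with list means of 0.10 and -0.03 (WT) against -0.73 and -0.45 (KO). Cd3e, a chain of the T cell receptor complex, fell (-1.14, SE 0.16). Of neutrophil genes 4 of 8 rose and 0 fell by limma (0 at an unadjusted p under 0.05, median difference 0.39, range 0.27 to 0.47, counts 7 and 0 against all 6 WT arrays), but 4 of these 8 were dim in both groups, that is under 4.96, which 90% of 1015 odorant receptor genes did not pass.

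Of lymphatic endothelial genes 1 of 5 rose and 3 fell (median difference -0.35, range -0.38 to -0.29, counts 1 and 0 leaving out KO replicate 1, 2 and 0 leaving out WT replicate 2). Lyve1, a hyaluronan receptor, fell (-0.54, SE 0.14), a call that ended without KO replicate 1 (-0.31), WT replicate 2 (-0.48). The secreted protein Mmrn1 fell (-0.61, SE 0.18), ending without KO replicate 1 (-0.44), WT replicate 2 (-0.51), and the transcription factor Prox1 fell (-0.35, SE 0.11), ending without KO replicate 1 (-0.36), KO replicate 2 (-0.34), WT replicate 1 (-0.36), WT replicate 2 (-0.35). Pdpn, podoplanin, rose (0.95, SE 0.15). Of pericyte genes 2 of 6 rose and 0 fell by limma (0 at an unadjusted p under 0.05, median difference 0.23, range 0.09 to 0.49). They were the channel subunits Kcnj8 (1.32, SE 0.23) and Abcc9 (1.20, SE 0.33), the latter not called without KO replicate 1 (0.80), WT replicate 1 (0.91). The Abcc9 call also ended in a fit with an intensity trend and robust eBayes, and with all 6 WT arrays as the reference. Of genes of interstitial cells of Cajal, the pacemakers of gut muscle, 1 of 4 rose and 1 fell (median difference -0.05, range -0.23 to 0.12). The receptor Kit fell (-1.001, SE 0.10), and Thbs4, a matrix protein, rose (0.43, SE 0.11) but was not called without KO replicate 1 (0.36), WT replicate 2 (0.35).

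The other marker lists had at most 2 called members, and their medians lay from 0.02 to 0.25. Rises and falls numbered 0 and 1 of 10 for blood endothelium, 1 and 0 of 8 for enteric neurons and glia, and 2 and 0 of 6 for adipose tissue. They were 1 and 1 of 7 for B and plasma cells, 1 and 0 of 8 for macrophages, 1 and 0 of 7 for mast cells and 1 and 0 of 4 for eosinophils. Liver genes had 1 and 1 of 5, while 0 of 5 exocrine pancreas and 0 of 2 erythroid genes were called by limma, with 0 and 0 higher and 0 and 0 lower at an unadjusted p under 0.05. Against all 6 WT arrays, macrophage genes had 4 rises and exocrine pancreas genes 2, and the adipose count was 0 leaving out KO replicate 1 or WT replicate 1. The part that these cell types play in the results below was not tested. In whole tissue, fewer cells of a type and less RNA per cell cannot be told apart.

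Of the genes with the AP-1 motif, Plaur, the receptor that holds the protease urokinase at the cell surface, gave 6.48 and 6.77 (WT) against 9.02 and 9.03 (KO). It rose (2.40, SE 0.14, adjusted p = 5.12e-07). Plat, which is not among the genes with a match, encodes tissue plasminogen activator, which like urokinase turns plasminogen into plasmin. Plat gave 6.47 and 6.98 (WT) against 9.33 and 9.38 (KO) and rose (2.63, SE 0.17). In both genes the lowest KO array lay more than 2 above the highest WT array. Il1rn, the antagonist of the interleukin 1 receptor, gave 6.40 and 6.17 (WT) against 8.77 and 9.02 (KO) and rose (2.61, SE 0.14). Ankrd22, an ankyrin repeat protein, rose (2.91, SE 0.13).

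The other large rises came from several families. Capg, which caps actin filaments, went from 6.32 and 6.39 in WT to 9.81 and 9.72 in KO and was 10.7-fold higher (3.41, SE 0.14, adjusted p = 3.56e-08). Btc, betacellulin, a ligand of the EGF receptor, went from 6.73 and 6.82 to 9.97 and 10.01, 9.27-fold higher (3.21, SE 0.10). In both genes the 2 arrays of a group lay within 0.1 of each other. Gsta4, a glutathione transferase that clears products of lipid peroxidation, rose (3.02, SE 0.20), as did Akr1b8, an aldo-keto reductase (2.83, SE 0.21). The calcium-binding protein S100a6 rose (2.67, SE 0.18) and the scramblase Plscr1 likewise (2.62, SE 0.11). Paqr8, a membrane progestin receptor, rose (2.73, SE 0.18), Niban1, a stress-induced protein, rose (2.62, SE 0.16), and Wfdc18, a secreted protein of the whey acidic family, rose (2.65, SE 0.35).

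Among genes that were already bright, Ckb, the brain form of creatine kinase, gave 10.34 and 10.24 (WT) against 12.75 and 12.56 (KO), 5.16-fold higher (2.37, SE 0.13, adjusted p = 2.81e-07). Tmsb10, which binds actin monomers, rose (2.03, SE 0.13), the small GTPase Rras rose (2.08, SE 0.14) and Rdh10, which starts the synthesis of retinoic acid, rose (2.04, SE 0.13). The tetraspan protein Tm4sf4 gave 10.27 and 11.62 (WT) against 13.22 and 13.15 (KO). Its WT arrays differed by more than 1, yet both lay below the KO arrays, and it rose (2.24, SE 0.33). Duoxa2, the maturation factor of a peroxide-producing oxidase, gave 10.32 and 8.99 (WT) against 11.35 and 11.41 (KO) and rose (1.73, SE 0.53). That call ended without KO replicate 1 (1.76), KO replicate 2 (1.70), WT replicate 2 (1.06), and in a fit with an intensity trend and robust eBayes (adjusted p = 0.118 by limma).

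The large falls are given in the same way. Cyp2b10, a drug-metabolising cytochrome P450, went from 10.26 and 11.24 in WT to 5.88 and 6.08 in KO, 27.4-fold lower (-4.77, SE 0.26, adjusted p = 3.24e-07). Xpnpep2, a membrane aminopeptidase that cuts next to proline, went from 10.65 and 10.90 to 6.21 and 6.08 (-4.64, SE 0.19). Slc23a1, which takes up vitamin C with sodium, went from 10.06 and 10.48 to 6.01 and 6.14, 18.2-fold lower (-4.19, SE 0.14). For each of these genes the highest KO array lay more than 3 below the lowest WT array. Slc5a11, a myo-inositol transporter, fell (-4.17, SE 0.10), Slc5a12, a lactate transporter, fell (-4.05, SE 0.28), and Slc1a1, a glutamate and aspartate transporter, fell (-3.97, SE 0.13). Mep1a, a subunit of the protease meprin, fell (-4.02, SE 0.25), as did the surface protein Susd2 (-4.10, SE 0.22). Pipox, a peroxisomal enzyme that oxidises pipecolic acid and sarcosine, fell (-4.31, SE 0.15), and Tnfsf10, the death ligand TRAIL, fell (-4.20, SE 0.14).

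Plb1, a phospholipase of the brush border, went from 11.80 and 11.81 in WT to 7.74 and 7.60 in KO (-4.13, SE 0.75, adjusted p = 0.00165). Its standard error was large for so clear a gap, and without either WT array of day 12 its adjusted p was 2.17e-08 by limma. Gsdmc4, a gasdermin, gave 8.50 and 8.51 (WT) against 4.39 and 4.62 (KO), so its KO level lay under the dim bound and no fold is given (-4.003, SE 0.26).

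Several falls concerned genes that stayed bright. Cat, catalase, which splits hydrogen peroxide, gave 12.40 and 12.53 (WT) against 9.46 and 10.25 (KO), 6.1-fold lower (-2.61, SE 0.31). Oat, which makes glutamate semialdehyde from ornithine, fell (-2.82, SE 0.14), Hadh, an enzyme of fatty acid oxidation, fell (-2.39, SE 0.11), and Naaladl1, a peptidase, fell (-2.54, SE 0.25). Glrx, glutaredoxin, fell (-2.34, SE 0.14), as did Epb41l3, which links the membrane to the cytoskeleton (-2.36, SE 0.15). The KO arrays disagreed more for Dmbt1, a secreted scavenger receptor that binds bacteria, with 9.23 and 10.45 (KO) against 12.71 and 12.55 (WT), and it fell (-2.79, SE 0.29). Prxl2a, a peroxiredoxin-like protein, had KO values of 8.80 and 10.21 and fell (-2.42, SE 0.54), a call that ended without KO replicate 1 (-1.71).

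**Figure D2:**
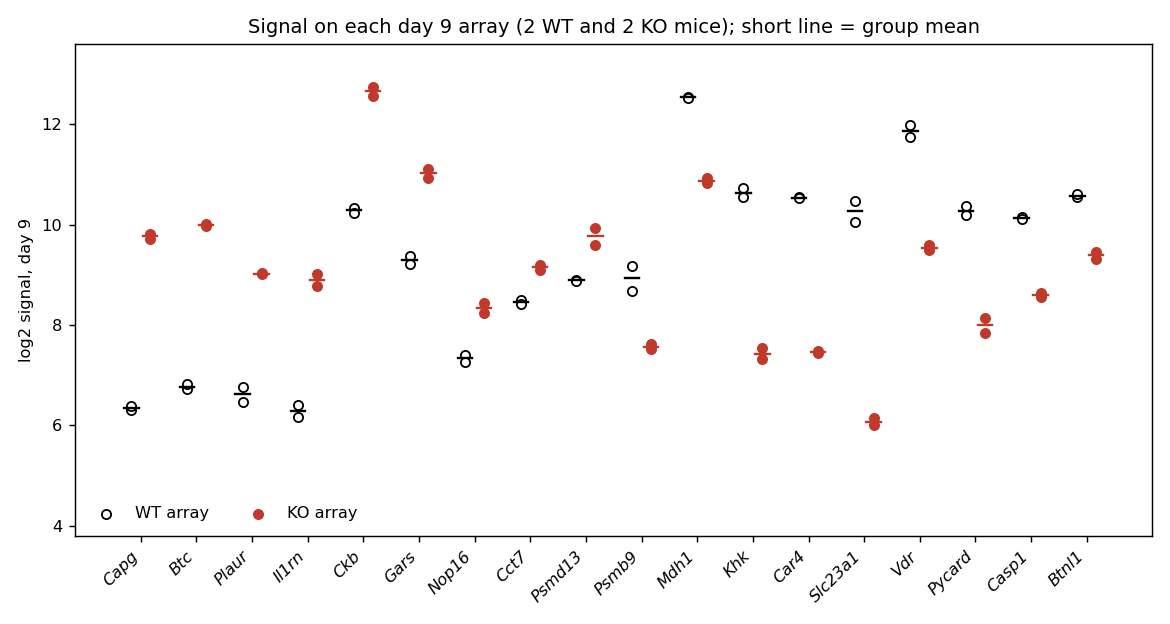
Log2 signal (vertical axis) on each of the 4 day 9 arrays for 18 genes named in the text, with a short line at each group mean. The 9 genes from Capg to Psmd13 have both KO arrays above both WT arrays, and the 9 from Psmb9 to Btnl1 have both below.

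To describe gene families beyond these extremes, 72 lists of functional groups were counted against the 29.7% of all genes called (12.6% higher, 17.1% lower). In 48 lists the share called was above that of all genes and in 24 it was not. This split takes no account of signal level. Among genes with both group means of at least 9, 47.9% were called, and the lists differed in brightness. For example, 0 of 48 proteasome subunits but 30 of 47 serpins were dim in both groups. A share above 29.7% may therefore reflect bright members, and a share below it dim ones, which was not tested.

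Genes for making, folding and degrading proteins are described first. Of nucleolar factors that build ribosomes, 27 of 45 rose and 0 fell by limma (0 at an unadjusted p under 0.05, median difference 0.36, range 0.25 to 0.46, counts 16 and 0 leaving out WT replicate 2), against a median of 0.02 for all genes, and 14 rose with any array left out. Nhp2, a protein of the particles that modify ribosomal RNA, gave 7.10 and 7.02 (WT) against 8.32 and 8.15 (KO) (1.17, SE 0.12, adjusted p = 3.1e-05). Nop16, a nucleolar assembly protein, gave 7.40 and 7.27 (WT) against 8.43 and 8.25 (KO) (1.005, SE 0.10). Nip7, needed for the large subunit, rose (0.74, SE 0.12). For these 3 genes the WT and KO arrays did not overlap.

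Of cytosolic tRNA synthetases, which load amino acids onto tRNA, 9 of 18 rose and 1 fell (median difference 0.44, range 0.31 to 0.59). Gars, the enzyme for glycine, went from 9.38 and 9.22 to 11.12 and 10.93 (1.72, SE 0.12), Cars, for cysteine, rose (0.95, SE 0.15) and Sars, for serine, rose (0.89, SE 0.08). The exception was Kars, for lysine, which fell (-0.44, SE 0.11) and whose call ended without WT replicate 1 (-0.36), and with all 6 WT arrays as the reference (-0.27). Of initiation factors, which start translation, 24 of 49 rose and 5 fell (median difference 0.27, range 0.20 to 0.29, counts 19 and 3 leaving out KO replicate 1, 17 and 3 leaving out WT replicate 2). Eif4ebp1, a repressor of cap-dependent initiation, rose (1.62, SE 0.14), as did Eif6, which keeps the large ribosomal subunit free (0.94, SE 0.09), and Eif2s2 (0.93, SE 0.11). The helicase Eif4a2 fell (-0.69, SE 0.09) and so did Eif2ak1, the haem-regulated kinase (-0.67, SE 0.14).

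Of the CCT chaperonin, which folds actin and tubulin, and its partner prefoldin, 10 of 15 rose and 0 fell by limma (0 at an unadjusted p under 0.05, median difference 0.44, range 0.31 to 0.53). Cct7 gave 8.51 and 8.41 (WT) against 9.20 and 9.10 (KO) (0.69, SE 0.09), and Cct8 rose (0.60, SE 0.08). Of heat shock proteins and their helpers 16 of 79 rose and 11 fell (median difference 0.07, range 0.01 to 0.11, counts 9 and 9 leaving out KO replicate 1, 7 and 8 leaving out WT replicate 2). Bag3, a helper of Hsp70, rose (0.63, SE 0.11), and Hspa12a, a distant Hsp70 relative, fell (-1.26, SE 0.23).

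The proteasome degrades tagged proteins. Of its subunits and activators 25 of 48 rose and 6 fell (median difference 0.30, range 0.26 to 0.35, counts 20 and 3 leaving out KO replicate 1 or WT replicate 1, 27 and 3 after quantile scaling, 29 and 3 against all 6 WT arrays). Psmd13, of the regulatory cap, gave 8.90 and 8.88 (WT) against 9.94 and 9.60 (KO) (0.88, SE 0.11), Psmd3 rose (0.87, SE 0.13), and the constitutive catalytic subunit Psmb5 rose (0.90, SE 0.18). The 3 catalytic subunits of the immunoproteasome, the form induced by interferon, fell. Psmb9 gave 9.18 and 8.68 (WT) against 7.62 and 7.52 (KO) (-1.36, SE 0.18), Psmb8 fell (-1.47, SE 0.25) and Psmb10 fell (-0.95, SE 0.18). Tap1, which carries the peptides so made into the endoplasmic reticulum, fell (-1.57, SE 0.21). With all 6 WT arrays as the reference, Psmb8 differed by -0.84 and was not called (adjusted p = 0.0611 by limma). T cell markers were lower in the same arrays, as given above, and their part in this was not tested.

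Mitochondrial and central metabolism follow. Of the citric acid cycle and its feeding enzymes 1 of 31 rose and 23 fell (median difference -0.71, range -0.75 to -0.60). Mdh1, the cytosolic malate dehydrogenase, gave 12.55 and 12.52 (WT) against 10.82 and 10.93 (KO) (-1.66, SE 0.09, adjusted p = 2.76e-07). Pdk2, a kinase that shuts the pyruvate dehydrogenase, fell (-2.60, SE 0.15), and Me2, the mitochondrial malic enzyme, fell (-1.86, SE 0.12). The member that rose, Me1, is the cytosolic malic enzyme, which makes NADPH. It gave 7.51 and 8.27 (WT) against 10.01 and 10.05 (KO) (2.13, SE 0.21), so the malic enzymes of the cytosol and of the mitochondrion moved in opposite directions.

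Of the Slc25 carriers, which move metabolites across the inner mitochondrial membrane, 5 of 46 rose and 19 fell (median difference -0.22, range -0.25 to -0.12, counts 3 and 17 leaving out KO replicate 2, 3 and 15 leaving out WT replicate 2). Slc25a15, the ornithine carrier, fell (-1.88, SE 0.13), Slc25a12, an aspartate and glutamate carrier, fell (-1.23, SE 0.26), and Slc25a37, an iron carrier, fell (-1.57, SE 0.16), while its relative Slc25a28 rose (0.69, SE 0.13). Of mitochondrial ribosomal proteins 21 of 77 rose and 10 fell (median difference 0.16, range 0.06 to 0.23, counts 8 and 8 leaving out KO replicate 1, 25 and 5 leaving out KO replicate 2, 11 and 7 leaving out WT replicate 1, 9 and 5 leaving out WT replicate 2). Mrpl54 rose (1.31, SE 0.11), and Mrps31 fell (-0.86, SE 0.08).

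Of enzymes that break down amino acids 2 of 38 rose and 20 fell (median difference -0.58, range -0.62 to -0.51), and 20 fell with any array left out. Ido1, which opens the ring of tryptophan and is induced by interferon, went from 10.29 and 9.92 to 6.50 and 6.77 (-3.47, SE 0.31, adjusted p = 9.92e-06). Auh, of leucine breakdown, fell (-1.75, SE 0.11), Aldh4a1, of proline breakdown, fell (-1.53, SE 0.14), and Cdo1, which oxidises cysteine, fell (-1.42, SE 0.12). Tat, tyrosine aminotransferase, went against its list and rose (2.11, SE 0.34).

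Of gluconeogenesis, fructose and glycogen genes 2 of 25 rose and 13 fell (median difference -0.41, range -0.43 to -0.31). Khk, the kinase that commits fructose, went from 10.55 and 10.72 to 7.53 and 7.33 (-3.20, SE 0.23). G6pc, which frees glucose, gave 8.03 and 8.55 (WT) against 4.62 and 4.84 (KO), the latter under the dim bound (-3.56, SE 0.20). Pck1, the entry enzyme of gluconeogenesis, fell (-2.59, SE 0.36), and Pgm1, of glycogen turnover, rose (0.87, SE 0.10). Of aldehyde dehydrogenases 4 of 20 rose and 11 fell (median difference -0.65, range -0.71 to -0.55, counts 1 and 11 leaving out KO replicate 1, 2 and 11 leaving out WT replicate 1, 1 and 9 leaving out WT replicate 2). Aldh1b1 fell (-2.65, SE 0.13), Aldh6a1, of valine breakdown, fell (-1.87, SE 0.11), and Aldh1a2, which makes retinoic acid, rose (0.68, SE 0.12).

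Nucleotides are both broken down and made in the gut wall. Of breakdown genes 1 of 23 rose and 11 fell (median difference -0.37, range -0.42 to -0.12, counts 1 and 7 leaving out KO replicate 1). Dpyd, which degrades uracil and thymine, went from 10.82 and 10.86 to 8.11 and 8.09 (-2.74, SE 0.15), Enpp3 fell (-2.27, SE 0.24), and Xdh, xanthine dehydrogenase, fell (-1.58, SE 0.14). Of synthesis genes 7 of 24 rose and 4 fell (median difference -0.05, range -0.16 to 0.01, counts 4 and 4 leaving out KO replicate 1, 4 and 3 leaving out WT replicate 2). The salvage enzymes Aprt (1.05, SE 0.11) and Hprt (0.75, SE 0.09) rose, and Prps2, which makes the ribose donor, fell (-1.42, SE 0.12).

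Of serine, glycine and one-carbon genes, which supply nucleotide synthesis, 5 of 31 rose and 8 fell (median difference 0.04, range -0.01 to 0.08). Mthfd2, of the mitochondrial folate route, went from 7.48 and 7.12 to 8.95 and 8.78 (1.56, SE 0.13), as Mthfd1l of the same route rose (0.93, SE 0.14), and the serine synthesis enzymes Psat1 rose (1.17, SE 0.14) and Psph rose (0.67, SE 0.12). Slc46a1, the intestinal folate transporter, gave 8.49 and 8.40 (WT) against 6.11 and 6.17 (KO) (-2.30, SE 0.14), and Aldh1l1, the cytosolic formyl-folate dehydrogenase, fell (-2.19, SE 0.17).

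Of haem genes 3 of 15 rose and 7 fell (median difference -0.29, range -0.38 to -0.22, counts 2 and 4 leaving out WT replicate 2). Hmox1, which breaks haem down, rose from 6.08 and 6.11 to 7.72 and 7.57 (1.54, SE 0.13), and Alas1, the entry enzyme of synthesis, rose (0.93, SE 0.13). Fech, the last enzyme of synthesis, fell (-0.87, SE 0.10), and Abcg2, an exporter of haem and drugs, fell (-1.54, SE 0.15). Of fatty acid elongases, desaturases and lipases 2 of 31 rose and 10 fell (median difference -0.12, range -0.14 to -0.06). The desaturases Fads2 (-2.04, SE 0.11) and Fads1 (-1.18, SE 0.14) fell, and so did the lipase Lipe (-1.63, SE 0.12).

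Channels and pumps carry water, ions and lipids across the epithelium. Of aquaporins, the water channels, 0 of 11 rose by limma (0 at an unadjusted p under 0.05) and 5 fell (median difference -0.04, range -0.06 to 0.10), and 5 fell with any array left out. Aqp1 gave 9.24 and 9.53 (WT) against 7.30 and 6.96 (KO) (-2.26, SE 0.20), Aqp4 fell (-1.56, SE 0.12), and Aqp7, which passes glycerol, fell (-1.52, SE 0.22). Of chloride channels and their relatives 2 of 32 rose and 11 fell (median difference -0.17, range -0.22 to -0.11, counts 4 and 12 against all 6 WT arrays). Cftr, the channel mutated in cystic fibrosis, fell (-1.05, SE 0.20), Clic5 fell (-2.14, SE 0.16), and Clic1 rose (1.39, SE 0.10). Of carbonic anhydrases 2 of 16 rose and 5 fell (median difference 0.07, range 0.02 to 0.14, counts 4 and 4 leaving out KO replicate 2, 0 and 5 leaving out WT replicate 2). Car4, the membrane form, went from 10.55 and 10.53 to 7.48 and 7.44 (-3.08, SE 0.19, adjusted p = 5.93e-07).

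Of the guanylin pathway, which controls salt and water secretion through cGMP, 1 of 19 rose and 5 fell (median difference -0.04, range -0.23 to 0.04, counts 1 and 3 leaving out WT replicate 2). Its receptor Gucy2c fell (-0.79, SE 0.14), the kinase Prkg2 fell (-1.34, SE 0.17), and Pde9a, which degrades cGMP, fell (-1.86, SE 0.12), while Npr3, a clearance receptor for natriuretic peptides, rose (1.47, SE 0.15). Of ABC transporters 8 of 51 rose and 12 fell (median difference 0.01, range -0.04 to 0.01, counts 5 and 8 leaving out KO replicate 1, 4 and 9 leaving out KO replicate 2, 4 and 10 leaving out WT replicate 1). The sterol pumps Abcg5 (-1.42, SE 0.13) and Abcg8 (-1.21, SE 0.14) fell, and the exporters Abcc1 (1.61, SE 0.15) and Abcc4 (1.11, SE 0.11) rose. Of zinc transporters and metallothioneins 4 of 28 rose and 6 fell (median difference -0.12, range -0.16 to -0.05, counts 2 and 4 leaving out KO replicate 1, 1 and 6 leaving out KO replicate 2, 0 and 4 leaving out WT replicate 1, 0 and 3 leaving out WT replicate 2, 2 and 7 after median centring). Slc30a2 fell (-2.28, SE 0.15) and Slc30a5 fell (-1.13, SE 0.09), both zinc carriers.

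**Figure D3:**
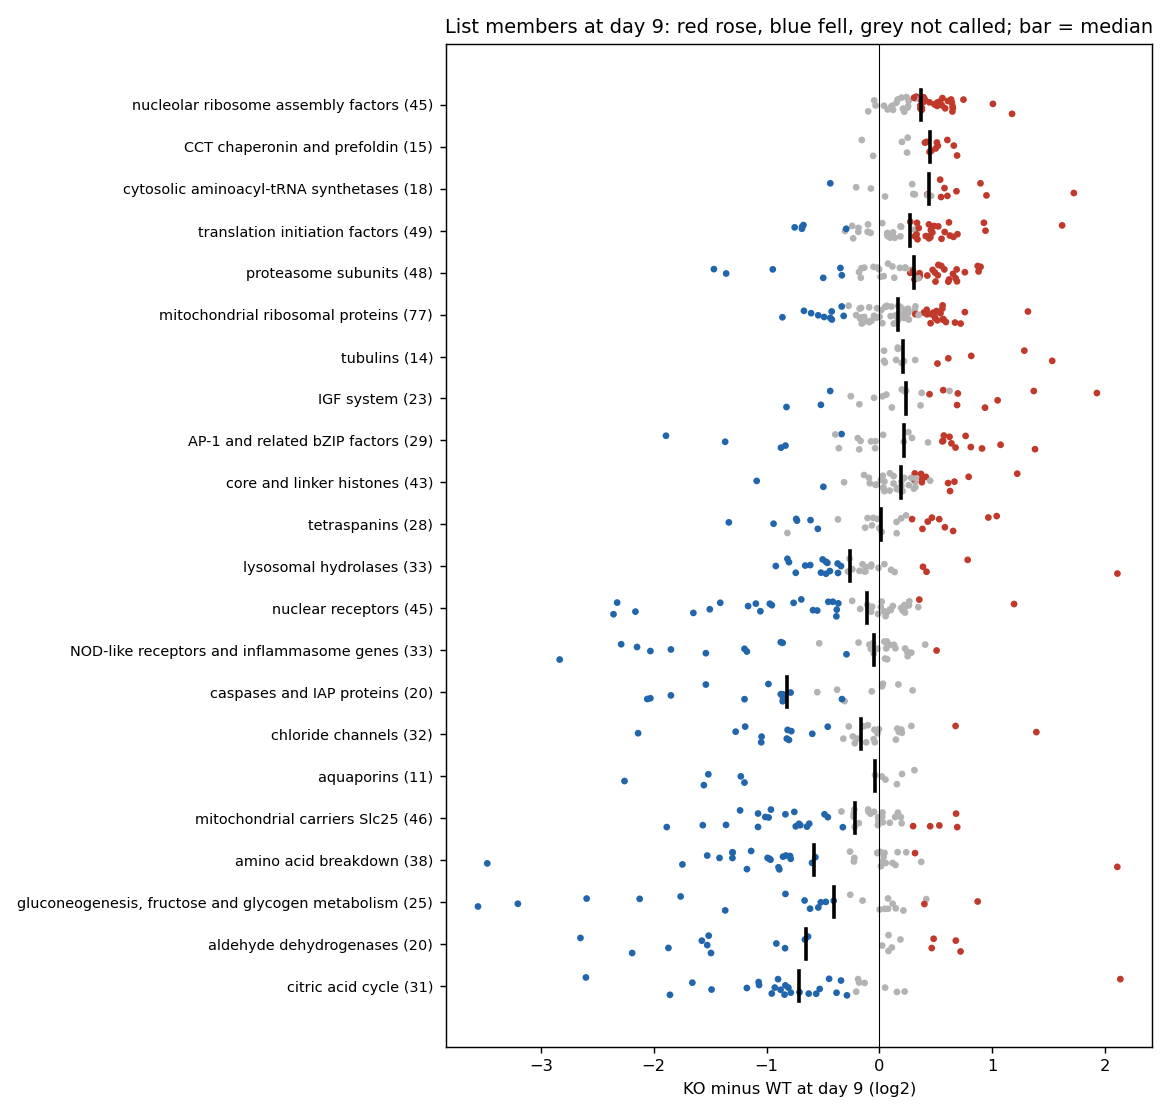
KO minus WT at day 9 (log2) for each member of 22 gene lists, the number measured in brackets, with called rises in red, called falls in blue, other members in grey and the list median as a bar. Nucleolar factors have a median of 0.36 and the CCT chaperonin one of 0.44, against -0.71 for the citric acid cycle and -0.65 for aldehyde dehydrogenases.

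Proteins of cell shape and adhesion came next. Of tubulins, the blocks of microtubules, 5 of 14 rose and 0 fell by limma (0 at an unadjusted p under 0.05, median difference 0.21, range 0.17 to 0.33, counts 3 and 0 leaving out WT replicate 1). Tubb2b went from 6.55 and 7.02 to 8.01 and 8.12 (1.28, SE 0.15). Tubulin genes are near copies of each other and may share probe signal, so the member is uncertain.

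Of integrins, which hold cells to the matrix, 6 of 26 rose and 3 fell (median difference 0.11, range 0.02 to 0.20, counts 2 and 2 leaving out KO replicate 1, 2 and 3 leaving out WT replicate 1). Itgav rose (0.82, SE 0.10), as did Itgb4, of the epithelial anchor to the basement membrane (0.71, SE 0.11), and Itgae, which keeps T cells in the epithelium, fell (-0.70, SE 0.11). Of tetraspanins 9 of 28 rose and 6 fell (median difference 0.01, range -0.02 to 0.08, counts 5 and 6 leaving out KO replicate 1, 4 and 8 leaving out WT replicate 1). Cd63, of late endosomes, rose from 7.23 and 7.27 to 8.22 and 8.21 (0.96, SE 0.16), and Tspan15 fell from 10.35 and 10.38 to 9.00 and 9.05 (-1.33, SE 0.10). Of galectins, which bind galactose, 1 of 9 rose and 5 fell (median difference -0.33, range -0.45 to -0.21, counts 0 and 2 leaving out KO replicate 1, 1 and 2 leaving out WT replicate 1 or WT replicate 2, 1 and 3 in a fit to day 9 alone). Lgals3 fell (-0.65, SE 0.13). Of butyrophilins 0 of 6 rose by limma (0 at an unadjusted p under 0.05) and 2 fell (median difference 0.11, range 0.01 to 0.11). Btnl1, which sustains gamma-delta T cells of the gut epithelium, went from 10.55 and 10.61 to 9.33 and 9.45 (-1.19, SE 0.10), and Btnl2 fell (-1.29, SE 0.15), though these are near copies and may share signal.

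Lysosomes digest material inside the cell, and peroxisomes oxidise fatty acids and other compounds. Of lysosomal hydrolases and related proteins 4 of 33 rose and 15 fell (median difference -0.27, range -0.31 to -0.16, counts 2 and 8 leaving out KO replicate 1, 2 and 9 leaving out WT replicate 1, 2 and 6 leaving out WT replicate 2). The peptidase Tpp1 fell (-0.92, SE 0.16) and the cholesterol exporter Npc1 fell (-0.74, SE 0.13). Gusb, beta-glucuronidase, rose from 7.63 and 7.68 to 9.71 and 9.82 (2.11, SE 0.15, adjusted p = 1.83e-06). Of cathepsins and cystatins 4 of 26 rose and 6 fell (median difference 0.00, range -0.03 to 0.06, counts 3 and 3 leaving out KO replicate 1 or WT replicate 1). The proteases Ctsl (1.06, SE 0.17), Ctsd (0.94, SE 0.18) and Ctsz (0.77, SE 0.10) rose, and the inhibitor Cst6 fell (-1.29, SE 0.11). Of V-ATPase subunits, of the proton pump, 5 of 24 rose and 6 fell (median difference 0.05, range 0.00 to 0.07, counts 2 and 3 leaving out KO replicate 1, 2 and 4 leaving out WT replicate 1 or WT replicate 2, 3 and 6 after median centring). Of peroxins, which build peroxisomes, 0 of 14 rose by limma (0 at an unadjusted p under 0.05) and 5 fell (median difference -0.21, range -0.25 to -0.11, counts 1 and 7 against all 6 WT arrays), among them Pex3 (-0.86, SE 0.13) and Pex13 (-0.78, SE 0.10).

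Of nuclear receptors, which bind hormones and lipids and act on genes, 2 of 45 rose and 20 fell (median difference -0.11, range -0.18 to -0.09). Vdr, the vitamin D receptor, gave 11.75 and 11.98 (WT) against 9.49 and 9.60 (KO) (-2.32, SE 0.12, adjusted p = 2.75e-07). The thyroid hormone receptor Thrb fell (-2.36, SE 0.20), Nr1d1, a repressor of the circadian clock, fell (-2.16, SE 0.24), and Nr5a2, which acts on steroid and bile acid genes, fell (-1.65, SE 0.18). Pparg, a regulator of fat storage, rose from 6.97 and 7.28 to 8.21 and 8.42 (1.19, SE 0.14). Of AP-1 and related bZIP factors 11 of 29 rose and 5 fell (median difference 0.22, range 0.10 to 0.27, counts 6 and 3 leaving out KO replicate 1, 7 and 3 leaving out WT replicate 2). Jund gave 9.05 and 8.81 (WT) against 10.48 and 10.15 (KO) (1.38, SE 0.16), and Jdp2 rose (0.91, SE 0.14), while Maf fell (-1.89, SE 0.17) and Atf2 fell (-0.83, SE 0.13). Fosl1, a Fos member of AP-1, rose (0.81, SE 0.22), but that call ended without KO replicate 2 (0.65), WT replicate 1 (0.85), WT replicate 2 (0.77), and with all 6 WT arrays as the reference (0.61).

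Of KLF and SP factors 5 of 25 rose and 5 fell (median difference 0.14, range 0.10 to 0.19, counts 1 and 4 leaving out KO replicate 1, 3 and 4 leaving out KO replicate 2, 2 and 4 leaving out WT replicate 1, 0 and 3 leaving out WT replicate 2). Klf5, of crypt cells, fell (-0.44, SE 0.09). Of ETS factors 4 of 25 rose and 4 fell (median difference -0.01, range -0.03 to 0.12, counts 1 and 1 leaving out KO replicate 1, 2 and 5 leaving out KO replicate 2, 0 and 1 leaving out WT replicate 1, 4 and 1 leaving out WT replicate 2, 3 and 2 after quantile scaling, 1 and 4 after median centring, 1 and 3 in a fit to day 9 alone). Etv3 fell (-0.997, SE 0.14).

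Of the IGF system, growth factors and the proteins that bind them, 8 of 23 rose and 3 fell (median difference 0.24, range 0.19 to 0.29, counts 10 and 5 against all 6 WT arrays). Igfbp5 went from 6.76 and 7.51 to 9.34 and 8.78 (1.93, SE 0.25), Igfbp4 rose (1.37, SE 0.25) and the ligand Igf1 rose (1.05, SE 0.12). The ligand Igf2 fell (-0.82, SE 0.14), as did the insulin receptor Insr (-0.52, SE 0.11) and its adaptor Irs2 (-0.44, SE 0.10). Col1a1 and other fibroblast markers rose in the same arrays, as given above, and the part of fibroblasts was not tested. Of TGF-beta and activin genes 9 of 39 rose and 6 fell (median difference 0.09, range 0.02 to 0.13). The receptor Tgfbr2 rose from 8.66 and 8.89 to 9.88 and 10.05 (1.19, SE 0.11), the activin inhibitor Fst rose (1.20, SE 0.17), and the matrix protein Tgfbi fell (-1.25, SE 0.11).

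Of FGF ligands and receptors 7 of 32 rose and 3 fell (median difference 0.14, range 0.11 to 0.17, counts 1 and 4 leaving out KO replicate 1, 1 and 3 leaving out WT replicate 1, 3 and 3 leaving out WT replicate 2, 4 and 3 after median centring, 12 and 3 against all 6 WT arrays). Fgf7, a growth factor from connective tissue for epithelium, fell from 6.99 and 7.77 to 5.53 and 5.58 (-1.82, SE 0.22), and the receptor Fgfr4 rose (0.94, SE 0.13). Of semaphorins, plexins and neuropilins, known from axon guidance, 8 of 33 rose and 6 fell (median difference 0.20, range 0.13 to 0.23, counts 5 and 4 leaving out KO replicate 1, 4 and 6 leaving out WT replicate 1). Sema3c rose (1.35, SE 0.13), as did the receptor Plxna2 (0.87, SE 0.12), and Sema4g fell (-1.38, SE 0.10). Of ephrins and Eph receptors, which sort cells along the crypt, 4 of 21 rose and 4 fell (median difference 0.03, range -0.03 to 0.06, counts 2 and 3 leaving out KO replicate 1, 0 and 3 leaving out WT replicate 1, 0 and 2 leaving out WT replicate 2). Ephb4 fell (-0.69, SE 0.14) and Efnb1 fell (-0.55, SE 0.11).

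Of prostaglandin and leukotriene genes 4 of 32 rose and 8 fell (median difference 0.02, range -0.04 to 0.06, counts 4 and 4 leaving out KO replicate 1, 2 and 4 leaving out WT replicate 1, 3 and 4 leaving out WT replicate 2, 6 and 5 against all 6 WT arrays). Hpgd, which inactivates prostaglandin E2, fell from 11.40 and 11.66 to 9.31 and 9.23 (-2.26, SE 0.19), and the receptor Ptger4 rose (0.85, SE 0.16). Of adenylate cyclases and A-kinase anchors 2 of 33 rose and 8 fell (median difference -0.06, range -0.09 to -0.04, counts 2 and 4 leaving out KO replicate 1, 1 and 5 leaving out WT replicate 1, 2 and 2 leaving out WT replicate 2, 3 and 5 after quantile scaling). The anchor Akap7 fell (-0.71, SE 0.10), whereas Akap13 rose (0.93, SE 0.15).

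Sensors of microbes switch on caspases, proteases that mature cytokines or kill the cell. Of NOD-like receptors and inflammasome genes 1 of 33 rose and 11 fell (median difference -0.05, range -0.08 to 0.00, counts 3 and 11 leaving out KO replicate 2, 4 and 11 against all 6 WT arrays), and 14 of the 33 were dim in both groups. Nlrc5, an activator of MHC class I genes, rose (0.51, SE 0.15), a call that ended without KO replicate 1 (0.36), WT replicate 1 (0.54), WT replicate 2 (0.47), and the mean of its probe sets gave -0.026. Pycard, the adaptor that gathers caspase-1, gave 10.37 and 10.19 (WT) against 8.15 and 7.84 (KO), 4.88-fold lower (-2.29, SE 0.12, adjusted p = 2.28e-07). Nlrp6, a sensor of the gut epithelium, fell (-2.15, SE 0.17), as did Naip5, a sensor of flagellin (-2.03, SE 0.16), whose near copies may share its signal. Of caspases and inhibitors of apoptosis 0 of 20 rose by limma (1 at an unadjusted p under 0.05) and 12 fell (median difference -0.82, range -0.93 to -0.61). Casp1, which matures interleukin 1, went from 10.16 and 10.11 to 8.55 and 8.64 (-1.54, SE 0.09), and Casp6 fell (-2.06, SE 0.17). Naip5, counted in both lists, and its near copy Naip6 are also among the falls of this list and may share signal.

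Of autophagy genes 6 of 36 rose and 10 fell (median difference -0.13, range -0.15 to -0.04, counts 3 and 8 leaving out WT replicate 2). The cargo receptor Sqstm1 rose from 9.93 and 10.11 to 10.99 and 10.87 (0.90, SE 0.10), and Gabarapl1 rose (0.88, SE 0.16). Irgm1, a GTPase induced by interferon, fell (-1.97, SE 0.22), and the protease Atg4c fell (-1.41, SE 0.11). Atg16l1, known for a variant tied to Crohn's disease, rose (0.37, SE 0.10), but that call ended without KO replicate 1 (0.30), WT replicate 2 (0.32), and with all 6 WT arrays as the reference (0.21).

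Of core and linker histones 11 of 43 rose and 2 fell (median difference 0.19, range 0.12 to 0.30, counts 1 and 2 leaving out KO replicate 1, 4 and 1 leaving out WT replicate 1, 1 and 1 leaving out WT replicate 2, 7 and 2 after median centring, 6 and 1 in a fit to day 9 alone). H4c6 gave 9.38 and 9.44 (WT) against 10.63 and 9.78 (KO), the second KO array lying much nearer to WT. It rose (0.79, SE 0.22), and the call ended without KO replicate 1 (0.36), WT replicate 1 (0.76), WT replicate 2 (0.82). H1f2, a linker histone, gave 7.60 and 7.84 (WT) against 9.09 and 8.78 (KO) (1.22, SE 0.21), and H2az2, a variant of H2A, fell (-1.09, SE 0.17). The labels give polyA RNA, and most histone transcripts have no poly(A) tail. Histone genes are close copies of each other, so single members are uncertain.

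In the 24 lists whose share called was no higher than that of all genes, 81 of 709 genes rose and 68 fell. This total of 149 became 91 on leaving out KO replicate 1, 89 on leaving out WT replicate 1 and 83 on leaving out WT replicate 2. Of keratins, the filaments of epithelium, 11 of 52 rose and 1 fell (median difference 0.14, range 0.11 to 0.17, counts 5 and 1 leaving out KO replicate 1, 6 and 0 leaving out WT replicate 1, 5 and 0 leaving out WT replicate 2, 18 and 1 against all 6 WT arrays). Krt7 went from 8.40 and 8.37 to 9.76 and 9.86 (1.43, SE 0.16), and the partners Krt8 (0.84, SE 0.13) and Krt18 (1.71, SE 0.16) rose. Of desmosome genes 4 of 17 rose and 1 fell (median difference 0.03, range -0.02 to 0.05, counts 3 and 0 leaving out WT replicate 1 or WT replicate 2). Ppl, periplakin, rose (1.21, SE 0.10). Of connexins and pannexins 2 of 19 rose and 3 fell (median difference 0.01, range -0.02 to 0.06, counts 1 and 2 leaving out KO replicate 1 or WT replicate 1). Of Ly6 family genes 6 of 43 rose and 3 fell (median difference 0.12, range 0.08 to 0.16, counts 11 and 3 against all 6 WT arrays). Ly6d rose (2.60, SE 0.27). Of the CEA family 1 of 15 rose and 3 fell (median difference 0.07, range 0.00 to 0.07, counts 0 and 2 leaving out KO replicate 1, 3 and 3 against all 6 WT arrays). Ceacam20, of the brush border, fell (-2.50, SE 0.18). Of serpins, which inhibit proteases, 5 of 47 rose and 1 fell (median difference 0.08, range 0.03 to 0.08, counts 3 and 0 leaving out KO replicate 1, 3 and 1 leaving out WT replicate 1), and 30 of them were dim in both groups. Of septins, which scaffold dividing cells, 2 of 12 rose and 0 fell by limma (1 at an unadjusted p under 0.05, median difference 0.00, range -0.05 to 0.02, counts 0 and 0 leaving out WT replicate 1). Of sodium pump genes 2 of 15 rose and 0 fell by limma (0 at an unadjusted p under 0.05, median difference 0.16, range 0.13 to 0.20, counts 5 and 0 against all 6 WT arrays). Neither rise was called on leaving out any 1 of the day 9 arrays.

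Of potassium channels 7 of 87 rose and 6 fell (median difference 0.05, range 0.03 to 0.08, counts 4 and 5 leaving out KO replicate 1, 2 and 4 leaving out WT replicate 2, 16 and 6 against all 6 WT arrays). Kcnj13 fell (-2.19, SE 0.19) and Kcnk5 fell (-1.70, SE 0.14). Of calcium absorption genes 1 of 17 rose and 4 fell (median difference 0.06, range 0.03 to 0.10, counts 1 and 2 leaving out KO replicate 2 or WT replicate 2, 4 and 4 against all 6 WT arrays). Of membrane serine proteases 6 of 42 rose and 2 fell (median difference 0.08, range 0.06 to 0.13, counts 1 and 2 leaving out WT replicate 2). Of carboxypeptidases 1 of 14 rose and 3 fell (median difference 0.07, range -0.03 to 0.13, counts 0 and 2 leaving out KO replicate 1 or WT replicate 2). Of phospholipases A2 1 of 22 rose and 4 fell (median difference 0.03, range 0.00 to 0.08, counts 1 and 2 leaving out KO replicate 1, 0 and 2 leaving out WT replicate 2, 0 and 3 in a fit to day 9 alone, 4 and 3 against all 6 WT arrays). Of HOX genes 6 of 37 rose and 0 fell by limma (0 at an unadjusted p under 0.05, median difference 0.14, range 0.10 to 0.18, counts 1 and 0 leaving out KO replicate 1, 2 and 0 leaving out WT replicate 1 or WT replicate 2). Of forkhead factors 6 of 43 rose and 2 fell (median difference 0.09, range 0.06 to 0.11, counts 4 and 1 leaving out KO replicate 1, 3 and 0 leaving out WT replicate 1, 3 and 1 leaving out WT replicate 2, 10 and 4 against all 6 WT arrays). Foxq1 rose (0.96, SE 0.11). Of SOX factors 4 of 20 rose and 1 fell (median difference 0.23, range 0.18 to 0.25, counts 1 and 1 leaving out WT replicate 1, 2 and 1 leaving out WT replicate 2, 8 and 1 against all 6 WT arrays). Of immediate early genes outside AP-1 5 of 30 rose and 2 fell (median difference 0.08, range 0.05 to 0.20, counts 2 and 2 leaving out KO replicate 1, 3 and 1 leaving out WT replicate 1 or WT replicate 2). Of phosphodiesterases 0 of 24 rose by limma (2 at an unadjusted p under 0.05) and 6 fell (median difference -0.06, range -0.11 to -0.03, counts 0 and 3 leaving out KO replicate 1 or WT replicate 2 or in a fit to day 9 alone, 2 and 7 against all 6 WT arrays). Of RGS proteins 1 of 20 rose and 1 fell (median difference 0.02, range -0.02 to 0.08). Of STAT and SOCS genes 1 of 21 rose and 5 fell (median difference -0.15, range -0.20 to -0.10, counts 1 and 3 leaving out WT replicate 1, 3 and 6 against all 6 WT arrays). Of complement genes 3 of 37 rose and 7 fell (median difference -0.01, range -0.04 to 0.08, counts 0 and 3 leaving out KO replicate 1, 0 and 4 leaving out WT replicate 1, 1 and 6 leaving out WT replicate 2, 6 and 6 against all 6 WT arrays). Of Toll-like receptors and adaptors 1 of 24 rose and 3 fell (median difference 0.04, range -0.07 to 0.05, counts 3 and 5 against all 6 WT arrays). Of the BCL2 family 3 of 23 rose and 3 fell (median difference 0.12, range 0.09 to 0.22, counts 4 and 1 leaving out KO replicate 1, 6 and 1 leaving out KO replicate 2, 2 and 1 leaving out WT replicate 2, 9 and 2 after quantile scaling, 9 and 1 against all 6 WT arrays). Of DNA and histone methylation enzymes 2 of 31 rose and 7 fell (median difference -0.15, range -0.17 to -0.01, counts 2 and 3 leaving out KO replicate 1, 1 and 3 leaving out WT replicate 1 or WT replicate 2, 2 and 4 after quantile scaling, 3 and 11 against all 6 WT arrays). Tlr3, a sensor of double-stranded RNA, fell (-1.47, SE 0.15), and Bnip3, an inducer of mitophagy, rose from 7.34 and 7.71 to 9.32 and 9.22 (1.75, SE 0.15).

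The place of day 9 in the time course was tested as an interaction, the genotype difference at day 9 minus that at another day, where each day has WT mice of its own. Day 6 had 205 genes called (1.03%) and day 12 had 5452 (27.3%). The difference at day 9 departed from that at day 6 in 2534 genes (12.7%), more positive in 702 (3.52%) and more negative in 1832 (9.19%). It departed from that at day 12 in 1212 genes (6.08%), more positive in 402 (2.02%) and more negative in 810 (4.06%). Among genes called at day 9, the rise was larger than at day 12 for 164 and smaller for 99, and the fall was larger for 388 and smaller for 99. These genes were picked by their day 9 difference, on arrays that also enter this test. That choice favours larger changes at day 9, so these 4 counts do not show on which day changes were larger. The count against day 6 was 1387 to 1574 without any 1 of WT replicate 1 or either KO array of day 6, KO replicate 1 or either WT array of day 9. Among day 9 arrays, dropping WT replicate 2 brought the count against day 12 to 274, KO replicate 1 to 432 and WT replicate 1 to 532. Among day 12 arrays, dropping WT replicate 2 brought it to 358, WT replicate 1 to 501, KO replicate 2 to 753 and KO replicate 1 to 2433. Dropping a KO array of day 6 brought it to 762. On the first principal component (60.1% of the variance) the KO arrays of day 9 lay at 42.5 and 37.7. Those of day 12 lay on the same side, at 53.7 and 42.8, with WT arrays from -27.6 to -22.1. On the second principal component (16.7% of the variance) the KO arrays of day 9 lay at -32.1 and -23.0 and those of day 12 at 17.3 and 35.8, with WT arrays from -5.69 to 8.01.

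Asah2, a ceramidase of the brush border, differed by -1.44 at day 9 and -3.94 at day 12, a gap of 2.50 (SE 0.13, adjusted p = 5.64e-06 by limma). Aoc1, diamine oxidase, which degrades histamine, gave 12.49 and 12.53 (WT) against 8.98 and 8.64 (KO) at day 9, and its difference was -3.70 against -0.33 at day 6. Nox1, an oxidase that makes superoxide, had differences of 1.64 at day 6, 0.60 at day 9 and -2.22 at day 12. Its day 9 call ended without WT replicate 2 (0.53), while its departure from day 12 was called with any array left out. Frmd3, a FERM domain protein, differed by -0.97 at day 9, with the KO mean under the dim bound, and by 2.18 at day 12. Vldlr, a lipoprotein receptor, differed by 1.14 and 3.77 on these days. In 91 genes both days were called with opposite signs.

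Departures between days were also counted within families, and these counts changed as single arrays were left out. Of all genes, 2.02% were more positive and 4.06% more negative at day 9 than at day 12. Of 43 histones, 17 were more positive at day 9 than at day 12, against 2.02% of all genes, and the count became 8 on dropping WT replicate 2 of day 9, 10 on dropping KO replicate 1 of day 9 and 11 on dropping a WT array of day 12. H1f1, a linker histone, differed by -0.14 at day 9, which was not called, and by -1.86 at day 12, a gap of 1.72 (SE 0.19, adjusted p = 0.00101 by limma). H4c6 differed by 0.79 and -1.17 on these days. Of 45 nucleolar factors 6 were more positive at day 9, but the count was 0 to 4 as each array was left out, and 0 without WT replicate 2 of day 9. Of 36 autophagy genes 7 were more negative, a count that became 0 on dropping WT replicate 2, 2 on dropping KO replicate 1 and 3 on dropping WT replicate 1 of day 9. Dropping a WT array of day 12 left 1 and dropping KO replicate 2 of day 12 left 2. Gar1, of the particles that convert uridine to pseudouridine, had a gap of 0.61 and Atg13, of the kinase complex that starts autophagy, one of -0.93, and both calls ended without WT replicate 2 of day 9, among others.

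**Figure D4:**
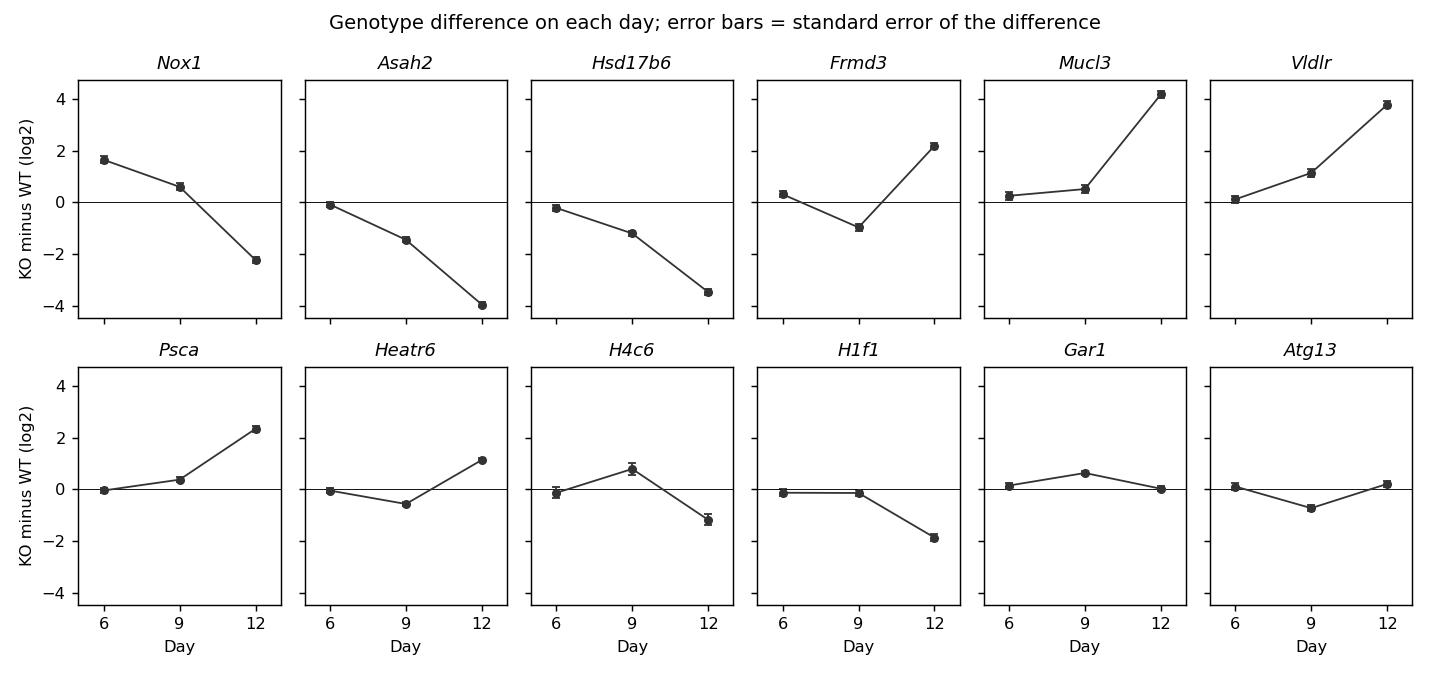
KO minus WT (log2, vertical axis) at days 6, 9 and 12 (horizontal axis) for 12 genes whose difference at day 9 departed from that at day 12, with error bars of 1 standard error and lines that join different mice. Nox1 passes from 0.60 at day 9 to -2.22 at day 12, Frmd3 from -0.97 to 2.18, and H1f1 from -0.14 to -1.86.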

How the data were processed

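Per the labels, biotin-labelled RNA of whole jejunum from single mice was hybridised to Affymetrix Mouse Gene 1.0 ST arrays. The deposited table holds log2 signals that the authors computed for 35556 probe sets. The submitters' processing notes list limma and R 3.5 but not what each was used for. How the background was corrected and probes were combined is not given in the sources used here. Arrays have no read depth, so their number limits precision, and the median SE at day 9 was 0.115.

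Of the probe sets, 21789 carried 1 symbol, giving 19938 genes. Means of the 6 groups were fitted over 12 arrays with limma 3.58.1 (R 4.3.3) and eBayes (6 residual and 5.23 prior degrees of freedom). On data simulated for this comparison, limma called 64.5% of the genes changed 1.5-fold and 97.6% of those changed 2-fold, and 6.24% of its calls were false. The simulation changed 200 of the 19938 genes in each of 5 runs, with noise independent between genes. In the real data 29.7% of genes were called, so these rates need not hold there. The members, the 72 lists and the tests were chosen with earlier results of these data known. The result of 1 list is not reported here. Named genes were Cep43, ranks 9 to 20 of the changes in each direction, the 8 largest among bright genes, up to 4 called members a list and direction, and markers. The 8 smallest p of each between-day test among genes called at day 9 were named too. H1f1 and Gar1 were added after their values were seen. Alternatives were quantile and median scaling, a dim filter, other probe set and variance rules, other references, a replicate block and leaving out each array.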

Additional observations from a re-analysis of the deposited data

Results flagged for a closer look

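The genotype difference at day 9 departed from that at day 6 in 2534 genes and from that at day 12 in 1212, by limma's interaction test after adjustment over all genes. The values that follow are such differences between days on the log2 scale.

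Only genes called at day 9 were ranked here, with predicted genes and the like left out. Against day 6, the 8 smallest p-values among them belonged to Anxa10 (5.78), Slc40a1 (3.89), Slc34a2 (-5.66), Aspa (-4.30), Olfm4 (-4.29), Slc23a1 (-4.07), Aoc1 (-3.37) and Slc5a11 (-3.00). Slc40a1 is the iron exporter ferroportin and Slc34a2 a phosphate transporter. Each of these calls held with any array left out.

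Against day 12, the smallest p-values among genes called at day 9 belonged to Asah2 (2.50), Nox1 (2.82), Hsd17b6 (2.26), Mucl3 (-3.65), Frmd3 (-3.15), Vldlr (-2.63), Psca (-1.96) and Heatr6 (-1.70). These held with any array left out too. Mucl3 and Psca were dim in WT at day 9, and their day 9 calls ended without any 1 of the 4 day 9 arrays. H4c6 (1.96) and H1f1 (1.72) held with any array left out, whereas Gar1 (0.61) and Atg13 (-0.93) did not.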

How the results depend on the processing

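Of 515 named genes, 348 kept their call with any array left out. Counts moved most with leave-one-out: genes higher in KO from 1329 to 2842, lower from 2317 to 3700, departures from day 6 from 1387 to 3315 and from day 12 from 274 to 2433. With 1 array left in a group, that array is assumed to vary like the others. The 9 other alternatives run for higher and lower genes, and the 6 run for the departures, kept the counts within 1.5 times: for higher and lower genes 2862 and 3003 after quantile scaling, 2194 and 3560 after median centring, 2230 and 3219 with day 9 arrays alone, 3671 and 3861 against all 6 WT arrays, and 2541 and 3438 with the smooth muscle mean as a covariate. Scaling moved the median of all genes by under 0.1. Nlrc5, at 0.51, turned to -0.026 as the mean of its probe sets. The replicate number as a block gave 2501 higher and 3422 lower genes. Residuals of same-numbered arrays correlated at 0.18, -0.09 and 0.11 on days 6, 9 and 12, so the numbers were not taken to pair mice.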
